A study of Mus musculus with 10 samples.

Results

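Genes of the extracellular matrix and of the fibroblasts that make much of it were followed in left ventricle (LV) and skeletal muscle (SkM) of mice with or without a heterozygous deletion of E0, an enhancer in the first intron of titin (Ttn). A list of 50 gene symbols chose them, with no measured value in the rule, and all 50 were among the 23337 genes listed in the deposited counts. By role, 20 make up the interstitial and fibrillar matrix, 11 the basement membrane, 6 are known from tendon and the muscle-tendon junction, 12 serve in matrix remodelling, and Pdgfra is a fibroblast receptor. Gene counts came from 10 bulk RNA-Seq libraries of poly(A) RNA, with the LV and SkM of each of 5 mice, and total counts ran from 11010021 to 17484873 per library. The 2 WT mice carried no deletion, and the 3 E0del/+ mice carried it on a single allele. Both genotypes were hybrids of C57BL/6 and 129SvEv, aged 17 weeks, in which the deletion came from a C57BL/6 E0del/+ parent, and no other allele or treatment is stated. The labels do not name the muscle or the sex of any mouse, and their batch number equals the replicate number, so that batches 1 and 2 hold a WT and an E0del/+ mouse each and batch 3 an E0del/+ mouse only.

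Collagens I, III and V form the fibrils between muscle cells, collagen VI forms beaded filaments at the cell border, and small leucine-rich proteoglycans such as decorin, biglycan and lumican sit on the fibrils. The basement membrane, a sheet of laminins, collagen IV, nidogen and perlecan, wraps muscle cells and capillaries. At the ends of skeletal muscle the matrix carries force to tendon, while proteases, their inhibitors, crosslinking enzymes and matricellular proteins reshape it in both tissues.

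Levels are in CPM, counts scaled to a common library size with TMM factors over the 10 libraries, given in the order of the replicate numbers, with 2 values for WT and 3 for E0del/+. Ttn, the gene that holds the deleted element, was at 6215 and 7985 CPM in WT LVs and 6179.8, 3929 and 5536 CPM in E0del/+ LVs. In SkM, Ttn was at 26879 and 22399 CPM in WT SkM and 23636, 25322 and 17342 CPM in E0del/+ SkM. Both WT LVs exceeded the 3 E0del/+ LVs, of which replicate 1 came closest, and in SkM the genotypes overlapped. The log2 fold change of E0del/+ over WT for Ttn was -0.45 in LV (standard error, SE, 0.27, edgeR unadjusted p = 0.133, adjusted p = 0.997) and -0.17 in SkM (SE 0.24, edgeR unadjusted p = 0.515, adjusted p = 1.00).

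Some libraries stood apart. The summed expression of 10 fast fibre genes in LV was 2091 and 47242 CPM in WT LVs and 2283, 2179 and 3278 CPM in E0del/+ LVs, with Myh4 the most abundant of them in SkM at 84483 and 108095 CPM in WT SkM and 83379, 101916 and 102153 CPM in E0del/+ SkM. WT LV replicate 2 was far above the other 4 LVs. It also had the highest sum of 7 adipocyte markers among the LVs, which was 97.7 and 332 CPM in WT LVs and 123, 186 and 101 CPM in E0del/+ LVs. In WT SkM replicate 1, 4 Y-linked genes summed to 24.0 CPM (300 counts) beside Xist at 441 CPM, whereas the other libraries with Xist over 100 CPM had 0.360 to 2.31 CPM of the Y-linked genes. The 9 ventricle markers were all higher in LV past the threshold, with Myh6 the most abundant, and summed to 67973 and 54991 CPM in WT LVs and 72819.8, 58359.6 and 78831 CPM in E0del/+ LVs. Ventricle sums in SkM were 2550.3 and 347 CPM in WT SkM and 1748, 2173 and 280.4 CPM in E0del/+ SkM. The 10 fast fibre markers were all higher in SkM past the threshold, so both lists lay on the side the tissue labels give. Xist in LV was at 405 and 3.08 CPM in WT LVs and 470.0, 569 and 4.10 CPM in E0del/+ LVs. In SkM, Xist was at 441 and 0.485 CPM in WT SkM and 428, 374 and 0.539 CPM in E0del/+ SkM, so WT replicate 2 and E0del/+ replicate 3 were low in both tissues. The 4 Y-linked genes summed to 0.360 and 189 CPM in WT LVs and 0.468, 2.31 and 177 CPM in E0del/+ LVs, high in the LVs of the same 2 mice. The counts of called members, the genotype medians, the group sums and the spread between libraries are also given without these libraries.

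Matrix genes were mostly higher in LV than in SkM. Of the 48 members that passed the filter on low counts, 38 were higher in LV at an adjusted p under 0.05 (edgeR quasi-likelihood test paired by mouse, Benjamini-Hochberg adjustment over 13283 genes), or 79.2%, against 32.1% of all genes tested. Another 2 members, Thbs4 and Col22a1, were higher in SkM, against 30% of all genes tested, and 8 were not called (Col12a1, Fn1, Chad, Fmod, Thbs1, Tnc, Timp2 and Lox). Tnmd and Timp1 had too few counts to be tested. The median log2 fold change of the tested members was 1.45, against 0.02 over all genes tested. All 5 LV libraries stood above all 5 SkM libraries for 28 of the 48 members, against 26.5% of all genes, and the reverse held for Col22a1 alone, against 26% of all genes. An increase of at least 4-fold in LV past the threshold was found for 16 members, against 9.28% of all genes. In bulk tissue, fewer cells of a type and less RNA per cell cannot be told apart.

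Mouse by mouse, the median log2 ratio of LV over SkM across the 48 members was 1.4 and 2.21 in WT and 2.08, 1.29 and 0.72 in E0del/+. All 5 medians were positive, with E0del/+ replicate 3 lowest and WT replicate 2 highest. In the mouse-by-mouse comparison 34 members were higher in LV in 5 of 5 mice, against 32.5% of all genes, and 2 were higher in SkM in 5 of 5, against 32.1%. Summed over the 50 members, expression was 9204 and 6611 CPM in WT LVs and 7641, 8217 and 6809.6 CPM in E0del/+ LVs. The SkM sums were 3068 and 1915 CPM in WT SkM and 2113, 2942 and 3200.2 CPM in E0del/+ SkM. The LV sums all lay above the SkM sums. By group, the mean sum was 4352 ± 509.8 CPM in LV and 1236 ± 179.7 CPM in SkM for the basement membrane (SD, n = 5), 2314 ± 472 and 794 ± 332 CPM for the fibrillar matrix, 969 ± 122 and 553 ± 134 CPM for remodelling, and 14.4 ± 1.22 and 53.6 ± 27.0 CPM for tendon. The mean log2 ratio of the sums over all 50 members was 1.56, and 1.55 without WT replicate 1 and 1.5 without WT replicate 2. Without WT replicate 1 it was 1.66 for the fibrillar matrix, 1.81 for the basement membrane, 0.81 for remodelling and -1.66 for tendon. Without WT replicate 2 these were 1.48, 1.79, 0.80 and -1.57, with a tendon sum in SkM of 42.6 ± 12.8 CPM (SD, n = 4). Scaling by total counts alone moved the median of all genes by 0.66 to 0.68 (log2), with 7881 genes higher in LV and 1590 higher in SkM in place of 4269 and 3986. On that scale 40 members were higher in LV, against 59.3% of all genes, and 2 in SkM, against 12%, with a member median of 2.12. Without WT replicate 2 (both tissues), 34 members were higher in LV, against 31.5% of all genes, and 3 in SkM, against 29.8%, with a member median of 1.24, and Dpt, Col18a1, Comp and Mmp14 were no longer called. The same 4 calls were lost without E0del/+ replicate 1 and without E0del/+ replicate 2, and those of Dpt and Col18a1 without WT replicate 1, whereas Fn1 and Timp2 were called without E0del/+ replicate 3. In the 3 E0del/+ mice alone, an alternative chosen after the data were seen, 30 members were higher in LV, against 26.6% of all genes, and 3 in SkM, against 25.3%, with a member median of 1.31.

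**Figure D1:**
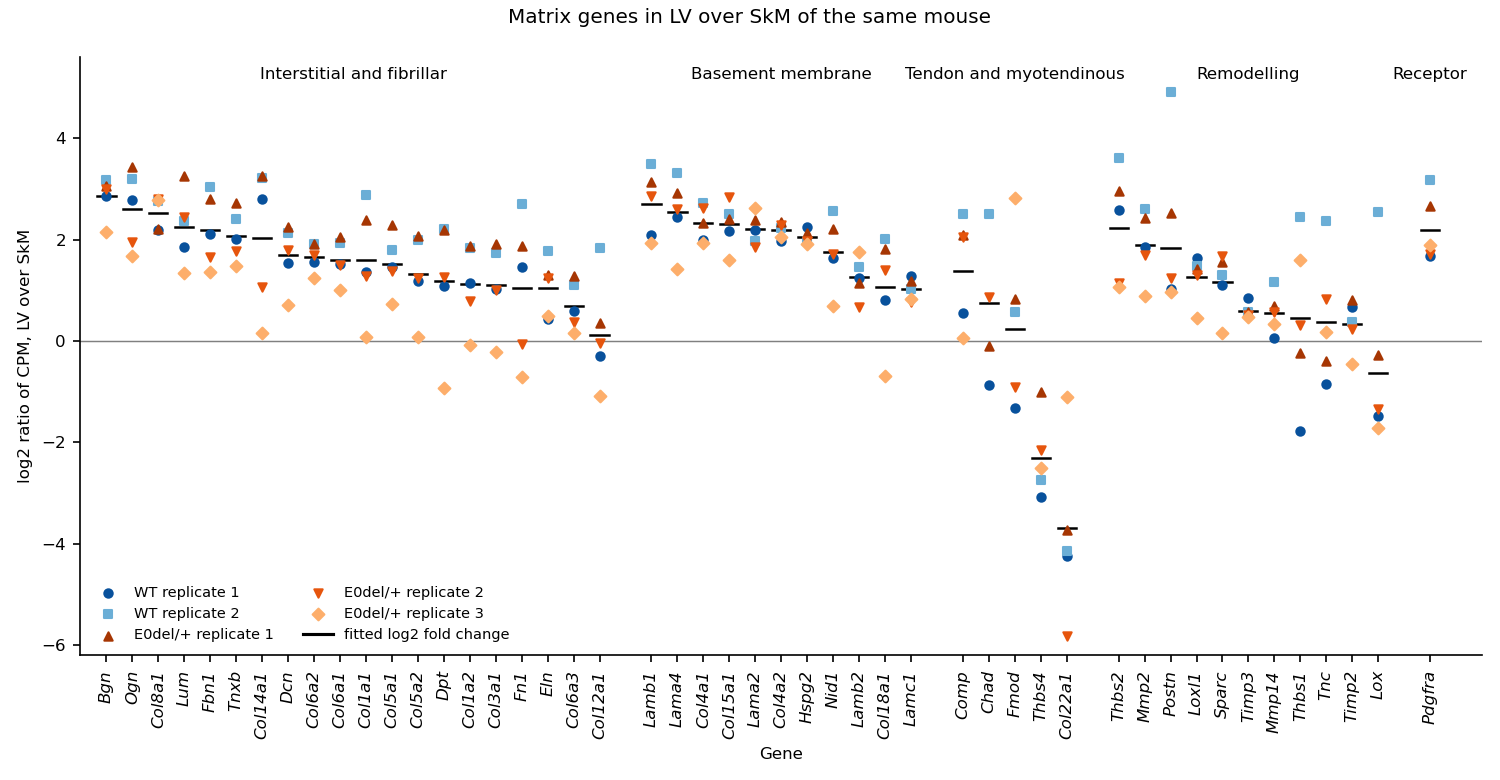
Log2 ratio of CPM in LV over SkM (vertical axis) for each of the 48 tested members (horizontal axis, by group) in each of the 5 mice (points), with black lines at the fitted log2 fold change. Points above 0 are higher in LV, as for most members, while Thbs4 and Col22a1 lie below 0 in 5 of 5 mice. The count of 0 for Chad in E0del/+ SkM replicate 3 gives no ratio in that mouse.

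**Figure D2:**
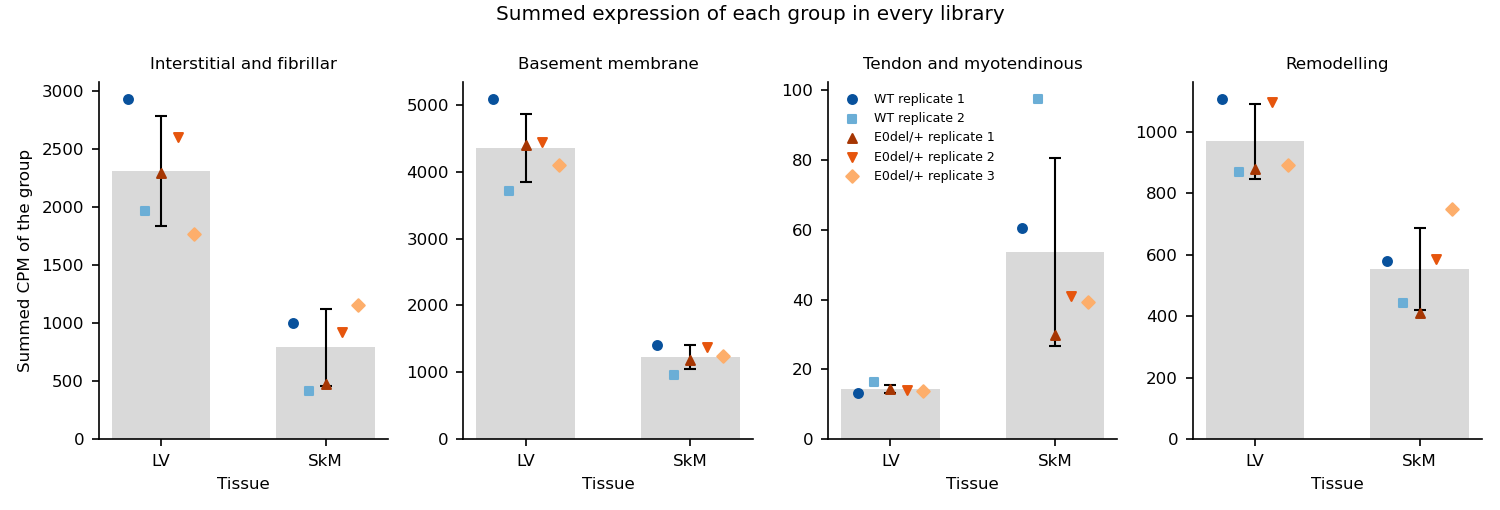
Summed CPM (vertical axis) of 4 member groups (panels) in LV and SkM, with bars for the mean of 5 libraries, error bars for the SD and points for single libraries. The sum over all 50 members averaged 7696 ± 1062 CPM in LV and 2648 ± 590 CPM in SkM, and the tendon group is the only group with a higher mean in SkM.

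The stretches before the start sites are shown for 4 members, since these moved together or in opposite directions between the tissues. Bgn, Ogn and Lama2 were higher in LV, and Thbs4 was higher in SkM. The stretches come from RefSeq starts on GRCm38.p6 and are 250 bases each, ending at the base before the start. Bgn lies on chrX:73483351-73483600 (plus strand), Ogn on chr13:49607765-49608014 (plus strand), Lama2 on chr10:27616943-27617192 (minus strand) and Thbs4 on chr13:92794819-92795068 (minus strand). Capitals mark a match on either strand to TATAAA, known as the TATA box, to CCAAT, the letters that NF-Y binds, to GGGCGG, a GC box, to CAGCTG, an E-box, to TGANTCA, known from AP-1, or to GGAATG, known from TEAD factors.
Bgn: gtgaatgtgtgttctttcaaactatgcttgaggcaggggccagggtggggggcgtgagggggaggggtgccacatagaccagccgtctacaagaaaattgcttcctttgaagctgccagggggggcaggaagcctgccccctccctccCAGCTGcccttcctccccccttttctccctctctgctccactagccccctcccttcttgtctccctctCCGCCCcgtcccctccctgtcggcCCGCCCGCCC
Ogn: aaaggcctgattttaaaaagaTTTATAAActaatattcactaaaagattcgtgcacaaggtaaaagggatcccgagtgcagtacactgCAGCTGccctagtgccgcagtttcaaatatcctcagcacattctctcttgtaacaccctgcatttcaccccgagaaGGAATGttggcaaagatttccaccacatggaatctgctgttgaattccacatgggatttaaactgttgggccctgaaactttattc
Lama2: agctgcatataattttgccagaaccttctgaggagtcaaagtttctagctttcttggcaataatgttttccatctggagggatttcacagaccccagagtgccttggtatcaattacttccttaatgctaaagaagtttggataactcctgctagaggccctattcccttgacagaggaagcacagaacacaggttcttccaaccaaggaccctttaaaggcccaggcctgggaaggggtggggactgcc
Thbs4: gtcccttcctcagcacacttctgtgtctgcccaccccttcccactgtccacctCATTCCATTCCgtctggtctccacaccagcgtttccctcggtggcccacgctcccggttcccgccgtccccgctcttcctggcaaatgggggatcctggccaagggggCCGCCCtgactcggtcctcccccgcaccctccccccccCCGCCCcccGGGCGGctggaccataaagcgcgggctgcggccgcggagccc
In Bgn the last 2 GGGCGG matches overlap, in Ogn the TATAAA matches on opposite strands overlap, and in Thbs4 the 2 GGAATG matches overlap. The Lama2 stretch holds none of the 6 motifs. Windows of this length were matched by symbol for 34 of the 50 members and not for the other 16. GGGCGG was in 52.9% of the 34 member windows and 32.7% of all 32851 windows of 250 bases. The median share of G and C letters was 56.6% in member windows and 52.4% in all windows. TATAAA was in 14.7% of member windows and 12.4% of all windows, and CCAAT in 29.4% and 33.8%. The shares were 14.7% and 13% for CAGCTG, 5.88% and 6.75% for TGANTCA, and 17.6% and 12.6% for GGAATG. A match describes letters only, and binding at it was not measured.

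Within the interstitial and fibrillar group, 18 of 20 members were higher in LV and the other 2 were not called, with a median log2 fold change of 1.60. The largest differences were in small proteoglycans and a network collagen. Bgn encodes biglycan, a proteoglycan that binds fibrils, and was at 402 and 243 CPM in WT LVs and 312, 376 and 261 CPM in E0del/+ LVs. In SkM, Bgn was at 55.6 and 26.8 CPM in WT SkM and 37.4, 47.1 and 58.6 CPM in E0del/+ SkM. Its LV and SkM ranges did not overlap, with a log2 fold change of 2.85 (SE 0.18, edgeR adjusted p = 1.24e-05, higher in 5 of 5 mice). Ogn, osteoglycin, a small proteoglycan of the same family, was at 98.7 and 83.0 CPM in WT LVs and 88.8, 82.4 and 89.9 CPM in E0del/+ LVs. Its SkM libraries held 14.3 and 9.05 CPM in WT SkM and 8.18, 21.3 and 28.3 CPM in E0del/+ SkM. LVs were tightly grouped and all above SkM, and the log2 fold change was 2.59 (SE 0.28, edgeR adjusted p = 0.000137, higher in 5 of 5 mice). Lum, lumican, which regulates fibril assembly, was at 62.7 and 35.8 CPM in WT LVs and 49.1, 63.1 and 23.6 CPM in E0del/+ LVs. SkM levels of Lum were 17.3 and 6.95 CPM in WT SkM and 5.14, 11.5 and 9.34 CPM in E0del/+ SkM. E0del/+ replicate 3 was lowest among the LVs, still above all SkM libraries, and the log2 fold change was 2.24 (SE 0.25, edgeR adjusted p = 0.000179). Col8a1, a chain of a short-chain network collagen, was at 33.1 and 26.4 CPM in WT LVs and 29.2, 32.2 and 24.0 CPM in E0del/+ LVs. In SkM, Col8a1 was at 7.27 and 3.88 CPM in WT SkM and 6.30, 4.65 and 3.50 CPM in E0del/+ SkM. The tissues did not overlap, and the log2 fold change was 2.53 (SE 0.15, edgeR adjusted p = 1.09e-05).

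The fibril-forming collagens had smaller log2 fold changes than Bgn, Ogn, Lum and Col8a1, which were picked for the largest differences, and the groups were not compared by a test. Col1a1, the main chain of collagen I, was at 161 and 158 CPM in WT LVs and 118, 122 and 84.0 CPM in E0del/+ LVs. SkM libraries held 63.0 and 21.7 CPM in WT SkM and 22.6, 50.1 and 79.9 CPM in E0del/+ SkM. E0del/+ SkM replicate 3 came close to the lowest LV without overlap, and the log2 fold change was 1.59 (SE 0.38, edgeR adjusted p = 0.00721, higher in 5 of 5 mice). For Col1a2 and Col3a1 the log2 fold changes were 1.11 and 1.10, and the tissues overlapped, with E0del/+ SkM replicate 3 above the lowest LV for both genes and WT SkM replicate 1 for Col3a1. Col5a1 (1.53, edgeR adjusted p = 0.000459) and Col5a2 (1.31, edgeR adjusted p = 0.00431) did not overlap between tissues and were higher in LV in 5 of 5 mice. Col14a1, a collagen that associates with fibrils, was at 48.2 and 12.1 CPM in WT LVs and 24.1, 26.5 and 11.8 CPM in E0del/+ LVs. In SkM, Col14a1 was at 6.87 and 1.29 CPM in WT SkM and 2.53, 12.7 and 10.5 CPM in E0del/+ SkM. Its log2 fold change was 2.03 (SE 0.49, edgeR adjusted p = 0.00753) with an overlap between tissues, and the call was lost in the E0del/+ mice alone. Fn1, fibronectin, an early scaffold of the matrix, was at 85.1 and 82.0 CPM in WT LVs and 65.1, 63.3 and 44.9 CPM in E0del/+ LVs. SkM libraries held 31.1 and 12.7 CPM in WT SkM and 17.9, 65.9 and 73.7 CPM in E0del/+ SkM. LV was not above SkM past the threshold (log2 fold change 1.04, SE 0.49, edgeR adjusted p = 0.0963), with E0del/+ replicates 2 and 3 high in SkM. Col12a1, a further fibril-associated collagen, was at 2.34 and 3.15 CPM in WT LVs and 1.66, 1.93 and 1.10 CPM in E0del/+ LVs. Its SkM levels were 2.88 and 0.889 CPM in WT SkM and 1.30, 1.97 and 2.34 CPM in E0del/+ SkM, overlapping LV. Dpt, dermatopontin, which binds decorin, ran from 37.3 to 66.7 CPM in LV and from 9.78 to 71.2 CPM in SkM.

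Each of the 11 basement membrane members was higher in LV, with a median log2 fold change of 2.18. The call of Col18a1 (1.06, edgeR adjusted p = 0.0401) was lost when single mice were left out, as given above. Its tissues overlapped, with a log2 ratio of LV over SkM of -0.70 in E0del/+ replicate 3. Lamb1 encodes a laminin beta chain and was at 171 and 122 CPM in WT LVs and 150.2, 127 and 114 CPM in E0del/+ LVs. In SkM, Lamb1 was at 40.0 and 10.8 CPM in WT SkM and 17, 17.5 and 30.1 CPM in E0del/+ SkM. The ranges were apart, with WT SkM replicate 2 lowest, and the log2 fold change was 2.69 (SE 0.25, edgeR adjusted p = 6.44e-05). Lama4, the laminin alpha chain of vessel walls, was at 116 and 89.7 CPM in WT LVs and 101, 111 and 82.3 CPM in E0del/+ LVs. SkM libraries held 21.2 and 9.05 CPM in WT SkM and 13.5, 18.3 and 30.5 CPM in E0del/+ SkM. Again the tissues did not overlap, and the log2 fold change was 2.54 (SE 0.26, edgeR adjusted p = 9.86e-05). Col4a1, a chain of the collagen IV network, was at 729 and 499 CPM in WT LVs and 602, 735 and 590.3 CPM in E0del/+ LVs. Its SkM levels were 183 and 75.9 CPM in WT SkM and 119.8, 119 and 155 CPM in E0del/+ SkM. WT LV replicate 2 was the lowest LV, above the highest SkM library, and the log2 fold change was 2.32 (SE 0.17, edgeR adjusted p = 2.53e-05). Col15a1, a collagen found beside basement membranes, was at 159 and 83.5 CPM in WT LVs and 106, 125 and 80.9 CPM in E0del/+ LVs. In SkM, Col15a1 was at 35.4 and 14.8 CPM in WT SkM and 19.9, 17.6 and 26.6 CPM in E0del/+ SkM. The 5 LVs were above the 5 SkM libraries, with a log2 fold change of 2.30 (SE 0.18, edgeR adjusted p = 2.97e-05). Lama2, the laminin alpha chain of muscle fibres, was at 30.2 and 30.1 CPM in WT SkM and 25.8, 25.9 and 21.8 CPM in E0del/+ SkM. The corresponding LVs were at 137 and 118 CPM in WT LVs and 136, 93.6 and 134 CPM in E0del/+ LVs, apart from SkM, and the log2 fold change was 2.20 (SE 0.14, edgeR adjusted p = 1.25e-05). The smallest difference of the group was in Lamc1, the laminin gamma chain shared by many laminins, at 1.02 (SE 0.12, edgeR adjusted p = 0.000251).

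Ratios of 6 pairs of related members, taken per kb of exon length, were chosen after the values were seen and are given without a test. Lamb1 over Lamb2 averaged 0.167 in LV and 0.0698 in SkM, and was higher in LV in 5 of 5 mice. Lama4 over Lama2 averaged 1.34 ± 0.347 in LV and 1.17 ± 0.661 in SkM (SD, n = 5), higher in LV in 4 of 5. E0del/+ replicate 3 went the other way, at 0.989 in LV and 2.25 in SkM. Col4a1 over Col4a2, chains that assemble together, averaged 1.23 and 1.13, higher in LV in 3 of 5. Col1a1 over Col1a2 averaged 1.06 in LV and 0.746 in SkM, higher in LV in 5 of 5. Bgn over Dcn, biglycan over decorin, averaged 0.826 in LV and 0.368 in SkM, higher in LV in 5 of 5. Timp3 over Timp2, inhibitors of metalloproteases, averaged 1.99 and 1.65, higher in LV in 4 of 5.

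In the tendon group, 1 of 5 tested members (Comp) was higher in LV and 2 were higher in SkM, with a median of 0.23. Thbs4, a thrombospondin of tendon and muscle attachment sites, was at 2.94 and 9.53 CPM in WT LVs and 3.90, 4.30 and 5.93 CPM in E0del/+ LVs. In SkM, Thbs4 was at 24.6 and 64.0 CPM in WT SkM and 7.82, 19.0 and 33.8 CPM in E0del/+ SkM. It was higher in SkM in 5 of 5 mice although the lowest SkM library, E0del/+ replicate 1, lay under WT LV replicate 2, and SkM exceeded LV 4.96-fold (log2 fold change -2.31, SE 0.28, edgeR adjusted p = 0.000257). Col22a1, the collagen of tissue junctions such as the myotendinous junction, was at 0.900 and 1.77 CPM in WT LVs and 1.30, 0.193 and 1.76 CPM in E0del/+ LVs. Its SkM libraries held 16.9 and 31.0 CPM in WT SkM and 17.3, 10.9 and 3.77 CPM in E0del/+ SkM. All 5 SkM libraries exceeded all 5 LVs, E0del/+ SkM replicate 3 being lowest, and the log2 fold change was -3.68 (SE 0.55, edgeR adjusted p = 0.000697). Comp, a pentameric thrombospondin relative of cartilage and tendon, was at 2.22 and 1.38 CPM in WT LVs and 2.76, 3.34 and 1.02 CPM in E0del/+ LVs. SkM levels of Comp were 1.52 and 0.242 CPM in WT SkM and 0.651, 0.805 and 0.988 CPM in E0del/+ SkM. The tissues overlapped, with a log2 fold change of 1.38 (SE 0.44, edgeR adjusted p = 0.0261) and leaving out WT replicate 2, or replicate 1 or 2 of E0del/+, ended the call. Chad, chondroadherin, a leucine-rich protein of cartilage, was at 1.14 and 0.923 CPM in WT LVs and 0.884, 1.48 and 0.732 CPM in E0del/+ LVs. In SkM, Chad was at 2.08 and 0.162 CPM in WT SkM and 0.941, 0.805 and 0 CPM in E0del/+ SkM, and the count of 0 allows up to 3 counts (0.270 CPM, counting error only). Tnmd, tenomodulin, a marker of tendon cells, was at 0 and 0.0769 CPM in WT LVs and 0, 0 and 0 CPM in E0del/+ LVs. Its SkM libraries held 0.240 and 0.323 CPM in WT SkM and 0.0724, 0.268 and 0 CPM in E0del/+ SkM, and it was not tested.

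**Figure D3:**
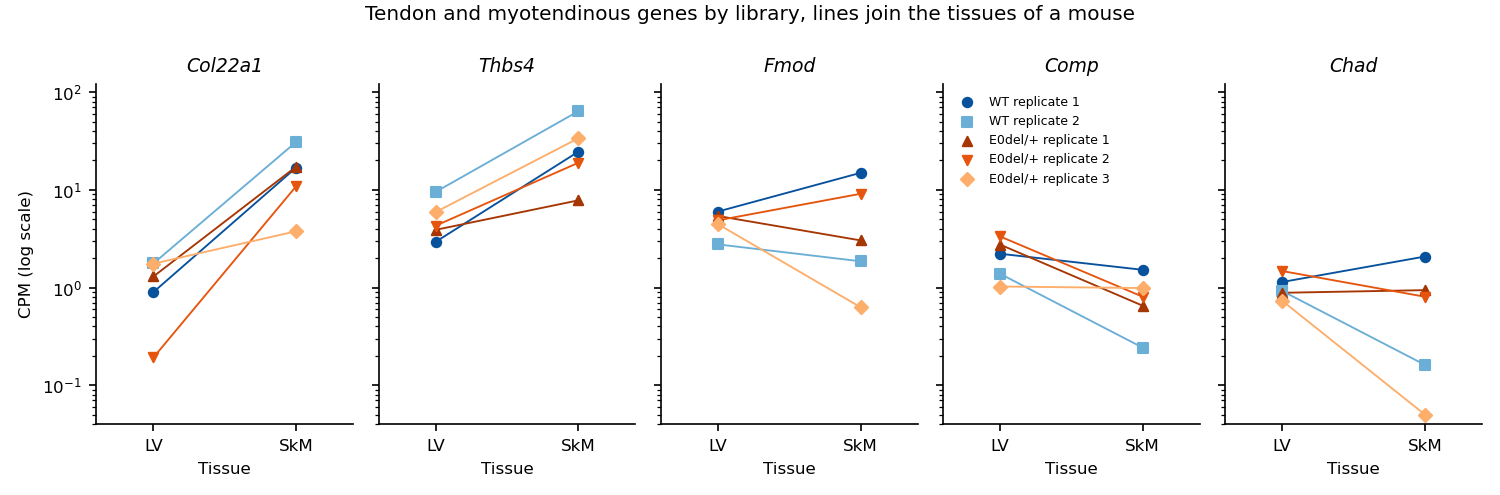
CPM on a log axis (vertical) of the 5 tested tendon and muscle-tendon junction genes (panels) in LV and SkM (points), with lines that join the libraries of a mouse. Thbs4 and Col22a1 sit higher in SkM, Comp higher in LV, and the count of 0 for Chad in E0del/+ SkM replicate 3 is drawn at 0.05.

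Of 11 remodelling members tested, 7 were higher in LV and 4 were not called, with a median log2 fold change of 0.59. Thbs2, a matricellular thrombospondin, was at 37.5 and 32.7 CPM in WT LVs and 33.4, 29.5 and 27.2 CPM in E0del/+ LVs. In SkM, Thbs2 was at 6.24 and 2.67 CPM in WT SkM and 4.27, 13.3 and 12.9 CPM in E0del/+ SkM. The ranges did not overlap, and the log2 fold change was 2.22 (SE 0.39, edgeR adjusted p = 0.00162). Mmp2, a gelatinase that cleaves denatured collagen, was at 69.4 and 55.3 CPM in WT LVs and 61.5, 71.4 and 43.3 CPM in E0del/+ LVs. SkM libraries held 19.1 and 9.13 CPM in WT SkM and 11.4, 21.9 and 23.5 CPM in E0del/+ SkM. All 5 LVs were above all 5 SkM libraries, and the log2 fold change was 1.89 (SE 0.24, edgeR adjusted p = 0.000337). Postn, periostin, a matricellular protein induced in activated fibroblasts, was at 24.8 and 12.1 CPM in WT LVs and 15.4, 21.1 and 16.4 CPM in E0del/+ LVs. Its SkM levels were 12.2 and 0.404 CPM in WT SkM and 2.68, 8.86 and 8.44 CPM in E0del/+ SkM. WT SkM replicate 2 stood far below the others, the tissues overlapped, and the log2 fold change was 1.83 (SE 0.47, edgeR adjusted p = 0.0106). Loxl1, an enzyme that crosslinks elastin, was at 53.6 and 42.0 CPM in WT LVs and 43.8, 55.5 and 37.4 CPM in E0del/+ LVs. In SkM, Loxl1 was at 17.2 and 15.1 CPM in WT SkM and 16.4, 22.5 and 27.4 CPM in E0del/+ SkM. The ranges did not overlap, with a log2 fold change of 1.26 (SE 0.18, edgeR adjusted p = 0.000523). Not called were Thbs1, Tnc, Timp2 and Lox, and Lox, an enzyme that crosslinks collagen, was the only member of the group with a negative estimate (-0.64, SE 0.59), which was 0.03 with total counts and -1.23 without WT replicate 2, where Lox was called. For Tnc, Col12a1 and Thbs1 the estimate turned negative without WT replicate 2, at -0.10, -0.26 and -0.06, without a call. Timp1, an inhibitor of metalloproteases, was too low for the test, at 0.480 and 0.384 CPM in WT LVs and 0.728, 0.770 and 0.512 CPM in E0del/+ LVs. Its SkM libraries held 0.0799 and 0 CPM in WT SkM and 0.0724, 0.179 and 0.180 CPM in E0del/+ SkM, all below LV, and with no filter on low counts Timp1 was called higher in LV. Timp3 shares exon bases with Syn3 on the other strand, and the deposited values do not say how strand was used.

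Pdgfra, a receptor that marks fibroblasts, was at 47.8 and 43.5 CPM in WT LVs and 59.2, 49.7 and 33.7 CPM in E0del/+ LVs. In SkM, Pdgfra was at 15.0 and 4.85 CPM in WT SkM and 9.34, 15.2 and 9.07 CPM in E0del/+ SkM. LVs were above SkM in each of the 5 mice, with no overlap and a log2 fold change of 2.20 (SE 0.24, edgeR adjusted p = 0.000141). Most of the fibroblast, endothelial, macrophage and epicardial markers were on the same side. Of 13 other fibroblast markers, 11 were higher in LV and 2 were not called (median 1.66), summed at 2044 and 1830.3 CPM in WT LVs and 1943, 2142 and 1411 CPM in E0del/+ LVs. Their SkM sums were 812 and 345 CPM in WT SkM and 515, 749 and 1362 CPM in E0del/+ SkM, with Gsn the most abundant gene and Tcf21 at 0 in all 5 SkM libraries, where 3 counts are 0.217 to 0.270 CPM. All 8 endothelial markers were higher in LV (median 2.07, Cdh5 the most abundant), with sums of 1654 and 1241 CPM in WT LVs and 1602, 2159 and 1404 CPM in E0del/+ LVs. Endothelial sums in SkM were 362 and 229.9 CPM in WT SkM and 398, 424 and 336 CPM in E0del/+ SkM, and no endothelial marker was at 0 throughout. Among 7 macrophage markers 6 were higher in LV (median 2.20, Csf1r most abundant in LV), and the other had a negative estimate without a call. Their sums were 122 and 84.6 CPM in WT LVs and 123, 128 and 102 CPM in E0del/+ LVs. Macrophage sums in SkM were 72.4 and 11.1 CPM in WT SkM and 112, 41.1 and 43.4 CPM in E0del/+ SkM. Ptprc was the most abundant of them in SkM, where Csf1r was at 8.79 and 2.42 CPM in WT and 5.50, 10.2 and 13.8 CPM in E0del/+. Of 6 epicardial and mesothelial markers, 5 were tested and 4 higher in LV (median 4.69, Upk3b most abundant in LV), and the 6 summed to 44.6 and 25.3 CPM in WT LVs and 39.1, 43.6 and 43.5 CPM in E0del/+ LVs. In SkM, with Krt19 most abundant, the 6 summed to 17.5 and 0.889 CPM in WT SkM and 20.3, 2.77 and 1.71 CPM in E0del/+ SkM. Of 8 mural markers 5 were higher in LV and Des, the most abundant, was higher in SkM (median 0.74), with sums of 2228 and 2504 CPM in WT LVs and 2498, 2125 and 2379.8 CPM in E0del/+ LVs. Mural sums in SkM were 3505 and 6158 CPM in WT SkM and 3788, 4631 and 5108 CPM in E0del/+ SkM. Without Des, a gene of striated muscle too, the 7 others summed to 698 and 483 CPM in WT LVs and 512, 619 and 432 CPM in E0del/+ LVs. In SkM these 7 summed to 299 and 119.9 CPM in WT SkM and 213, 259 and 277 CPM in E0del/+ SkM, below every LV. Of 7 adipocyte markers 4 had an unadjusted p under 0.05 by edgeR, against 8796 of all 13283 genes tested. None of the 7 passed the adjusted threshold, and their median was -4.25. Of the blood genes, Alas2 was higher in LV, at 20.6 and 18.5 CPM in WT LVs and 25.3, 17 and 22.3 CPM in E0del/+ LVs. In SkM, Alas2 was at 8.95 and 3.55 CPM in WT SkM and 6.73, 12.5 and 25.5 CPM in E0del/+ SkM, while Hba-a1 and Hba-a2 were at 0 in every library. The part of these markers in the member results was not tested.

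Per kb of exon length, Dcn, Lamb2 and Sparc were the 3 most abundant members in both tissues. In LV, Dcn, decorin, a proteoglycan that binds collagen and growth factors, was highest at 163 ± 31.3 CPM per kb (SD, n = 5), before Lamb2 at 142 ± 14.9 and Sparc, a collagen-binding matricellular protein, at 141 ± 25.2. In SkM, Sparc led at 66.3 ± 28.6 CPM per kb, before Lamb2 at 60.9 ± 17.4 and Dcn at 52.7 ± 19.0. The SDs of neighbours in both orders overlapped. In CPM without the length, Dcn was at 327 and 316 CPM in WT LVs and 339, 446 and 269 CPM in E0del/+ LVs. Its SkM levels were 113 and 71.8 CPM in WT SkM and 71.4, 129 and 164 CPM in E0del/+ SkM. All LVs were above all SkM libraries (log2 fold change 1.69, SE 0.23, edgeR adjusted p = 0.000458). Sparc was at 372 and 258 CPM in WT LVs and 302, 396 and 289 CPM in E0del/+ LVs. In SkM, Sparc was at 172 and 105 CPM in WT SkM and 102, 124 and 259 CPM in E0del/+ SkM, and E0del/+ replicate 3 reached the LV range (log2 fold change 1.17, SE 0.23, edgeR adjusted p = 0.00265).

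Libraries of a tissue varied more in SkM than in LV. Across 47 members with counts in every library, the median ratio of the highest to the lowest library was 1.66 in LV, against 1.5 over all genes, and 3.14 in SkM, against 1.57. In SkM the ratio exceeded 2 for 39 of the 47, against 30.1% of all genes. Leaving out WT SkM replicate 1 gave a median ratio of 2.58 in SkM, against 1.5 over all genes, and leaving out WT SkM replicate 2 gave 2.30, against 1.39. In LV, leaving out WT replicate 2 gave 1.61, against 1.38. Median deviations of the members from the tissue mean, in log2, were 0.23 and -0.15 in WT and 0.02, 0.15 and -0.26 in E0del/+ in LV. In SkM they were 0.44 and -0.77 in WT and -0.39, 0.23 and 0.44 in E0del/+. In SkM, WT replicate 2 was the lowest library for 32 of the 47 members, and WT replicate 1 or E0del/+ replicate 3 was the highest for 19 and 17. Over all genes these shares were 28.9%, 16.1% and 14.7%. In LV, WT replicate 1 was the highest for 29 members and E0del/+ replicate 3 the lowest for 27, against 12.9% and 20.1% of all genes. The LVs with negative medians were those of the 2 mice low in Xist, while in SkM 1 of these mice was lowest and the other among the highest, and the part of sex was not tested. Among members chosen after the values were seen, Postn had a SkM ratio of 30.3, with 12.2 and 0.404 CPM in WT SkM and 2.68, 8.86 and 8.44 CPM in E0del/+ SkM. Fmod, fibromodulin, a tendon proteoglycan, had a SkM ratio of 23.8, with 14.9 and 1.86 CPM in WT SkM and 3.04, 9.13 and 0.629 CPM in E0del/+ SkM. WT SkM replicate 2 was lowest for Postn, at 5 counts, and E0del/+ SkM replicate 3 lowest for Fmod, at 7 counts, so both ratios rest on few counts. Cell type markers also differed between these libraries. The 7 adipocyte markers summed to 1411 and 41.9 CPM in WT SkM and 403, 242 and 1758 CPM in E0del/+ SkM, with Cfd the most abundant. The 5 Schwann cell markers summed to 168 and 124 CPM in WT SkM and 34.2, 45.0 and 126 CPM in E0del/+ SkM, with Pmp22 the most abundant. WT SkM replicate 2 was lowest in the adipocyte, fibroblast and macrophage sums, whereas E0del/+ replicate 3 was highest in the first pair. Gsn alone made up much of the fibroblast sums, at 486 and 146 CPM in WT SkM and 232, 407 and 998 CPM in E0del/+ SkM. Pdgfra did not share that order, at 9.07 CPM in E0del/+ SkM replicate 3, within the range of the other SkM libraries. No marker of these lists was at 0 in all 10 libraries, and their part in the spread was not tested.

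**Figure D4:**
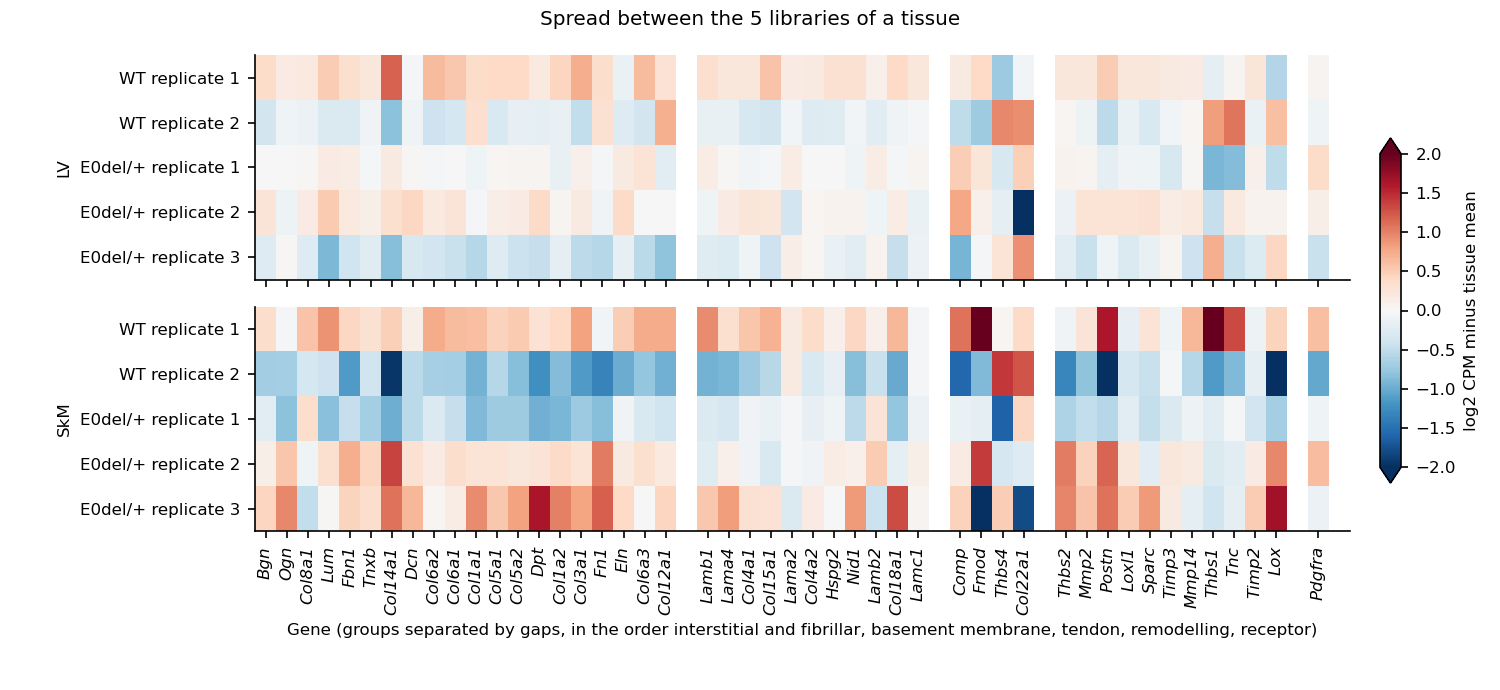
Colours give log2 CPM minus the tissue mean (colours end at -2 and 2) for 47 members with counts in every library (horizontal axis, by group) in each library (vertical axis), with LV in the upper panel and SkM in the lower. In SkM, the library medians run from -0.77 in WT replicate 2 to 0.44 in WT replicate 1 and E0del/+ replicate 3, a wider range than in LV.

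The comparison of E0del/+ with WT asks whether matrix expression differed with a single copy of the enhancer. In LV, 0 of 49 tested members passed the adjusted threshold, against 0% of 13420 genes by edgeR, while 2 members had an unadjusted p under 0.05, against 4.2% of all genes. They were Col1a1 and Fn1. DESeq2's Wald test passed 12 genes and 0 members, with 2 members at an unadjusted p under 0.05, against 3.99% of all genes. Col1a1 in LV was at 161 and 158 CPM in WT LVs and 118, 122 and 84.0 CPM in E0del/+ LVs, with each E0del/+ library below both WT libraries. Its log2 fold change was -0.56 (SE 0.20, edgeR unadjusted p = 0.0243 and adjusted p = 0.997, lower in 3 of 3 E0del/+ mice). Fn1 in LV was at 85.1 and 82.0 CPM in WT LVs and 65.1, 63.3 and 44.9 CPM in E0del/+ LVs, and here too the genotypes did not overlap. Its log2 fold change was -0.53 (SE 0.19, edgeR unadjusted p = 0.0239 and adjusted p = 0.997). Without WT LV replicate 2 the edgeR unadjusted p was 0.0582 for Col1a1 and 0.0533 for Fn1, and with the batch number as a block 0.174 and 0.144. Leaving out single LV libraries gave 0.0145 to 0.0851 for Col1a1 and 0.0220 to 0.0768 for Fn1. With the batch block only Thbs1 had an unadjusted p under 0.05, at a log2 fold change of -1.01 (edgeR unadjusted p = 0.00260, adjusted p = 0.644), against 4.36% of all genes, with log2 ratios of -0.72 in batch 1 and -1.30 in batch 2. With total counts, 0 members had an unadjusted p under 0.05. Within batches, the log2 ratio for Col1a1 was -0.45 in batch 1 and -0.38 in batch 2, and for Fn1 -0.39 and -0.37.

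Tnc, tenascin C, a protein of injured and developing matrix, had the largest estimate in LV. It was at 1.86 and 3.77 CPM in WT LVs and 0.988, 2.05 and 1.32 CPM in E0del/+ LVs, WT LV replicate 2 being highest and the genotypes overlapping. The log2 fold change was -0.94 (SE 0.46, edgeR unadjusted p = 0.0759 and adjusted p = 0.997). Without WT LV replicate 2 the log2 fold change of Tnc was -0.36, whereas without E0del/+ LV replicate 2 its edgeR unadjusted p was under 0.05. Col12a1, whose LV values are given above, was lower in all 3 E0del/+ LVs, with a log2 fold change of -0.80 (SE 0.38, edgeR adjusted p = 0.997). Timp1 was higher in all 3, with a log2 fold change of 0.63 (SE 0.57, edgeR adjusted p = 0.997). Its counts were low, at 8 and 5 in WT LVs and 14, 12 and 7 in E0del/+ LVs. In batches 1 and 2 the log2 ratios were -0.91 and -0.88 for Tnc, -0.49 and -0.71 for Col12a1, and 0.60 and 1.00 for Timp1. Genotypes did not overlap for 4 of 49 members (Col1a1, Col12a1 and Fn1 lower, Timp1 higher in E0del/+), against 16.4% of all genes. The estimate was negative for 38 of 49 members, with a median of -0.09, against -0.01 over all genes. Within batches, the median was -0.28 in batch 1, with 40 members lower, and 0.31 in batch 2, with 37 higher, so the direction turned. Each of these batches set a single E0del/+ mouse against a single WT mouse. Those of batch 2 also differed in Xist and the Y-linked genes, and WT LV replicate 2 was high in fast fibre genes. Within that batch, genotype cannot be told apart from these differences. Without WT LV replicate 1 the median was 0.13 and 578 genes passed, 0 of them members, with 3 members at an unadjusted p under 0.05, against 11.6% of all genes. Without WT LV replicate 2 the median was -0.26, with 4 members at an unadjusted p under 0.05, against 0.749%. Fast fibre markers differed with that library: 10 of 10 had an edgeR unadjusted p under 0.05 with a median of -6.82, as had 4 of 5 adipocyte markers. The 8 endothelial, 7 macrophage and 9 ventricle markers all had positive estimates (medians 0.23, 0.26 and 0.31). Of the 7 mural markers without Des, 0 were positive (median -0.20). The part of these markers in the member values was not tested.

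In SkM, 0 of 48 tested members passed the adjusted threshold, against 0% of 13154 genes by edgeR, and 0 had an unadjusted p under 0.05, against 0.867% of all genes. DESeq2 passed 0 genes and had 0 members at an unadjusted p under 0.05, against 1.15% of all genes. The largest estimates were in Thbs1, Lox and Fn1. Thbs1, a thrombospondin that activates latent TGF-beta, was at 29.8 and 3.31 CPM in WT SkM and 6.23, 5.91 and 5.48 CPM in E0del/+ SkM, and WT replicate 1 stood far above the rest. Its log2 fold change was -1.54 (SE 0.83, edgeR adjusted p = 1.00), -2.39 without WT SkM replicate 2, and 0.86 without WT SkM replicate 1, where the direction turned. Lox was at 5.2 and 0.727 CPM in WT SkM and 2.39, 7.43 and 12.2 CPM in E0del/+ SkM, with the genotypes overlapping. Its log2 fold change was 1.26 (SE 1.00, edgeR adjusted p = 1.00), with 3.35 without WT SkM replicate 1 and 0.44 without WT SkM replicate 2. Fn1, given above in SkM, had a log2 fold change of 1.22 (SE 0.70, edgeR adjusted p = 1.00), and 2.07 without WT SkM replicate 1. Only Lama2 had genotypes that did not overlap, lower in E0del/+ (log2 fold change -0.31, edgeR adjusted p = 1.00), against 11.4% of all genes. The median over members was 0.08, against -0.01 over all genes. By group it was 0.19 for the fibrillar matrix, 0.04 for the basement membrane, 0.20 for remodelling and -1.03 for tendon, where all 5 tested members had negative estimates. Without WT SkM replicate 1 the tendon median was 1.22, with 3 of 5 positive, and with the batch block -0.10. In the same comparison the 5 Schwann cell markers, whose sums are given above, were all negative (median -1.20). The 5 slow fibre genes were all positive (median 1.03), with Tnni1 the most abundant in SkM and sums of 279.6 and 52.3 CPM in WT SkM and 365, 601 and 83.5 CPM in E0del/+ SkM. Myh2, the fast IIa myosin that stood in the same list, was at 1120.5 and 746 CPM in WT SkM and 1748, 2766 and 1136 CPM in E0del/+ SkM and positive too. The 8 endothelial and 7 macrophage markers, with sums given above, were all positive too (medians 0.34 and 0.36), and the part of these markers in the member values was not tested. Thbs4, whose SkM values are given above, was at -1.13 (SE 0.64, edgeR adjusted p = 1.00). With the batch block Thbs4 was at -1.71 (edgeR unadjusted p = 6.03e-05, adjusted p = 0.159), with log2 ratios of -1.66 in batch 1 and -1.75 in batch 2. It was the only member with an unadjusted p under 0.05 in that fit, against 4.53% of all genes. That estimate rests on batches 1 and 2, as batch 3 holds no WT. It leaves out E0del/+ SkM replicate 3, which at 33.8 CPM lay between the WT values of 24.6 and 64.0 CPM.

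The direction of the SkM estimates turned with the library left out. With all 5 libraries 29 of 48 members were positive. Within batch 1 the median log2 ratio of the members was -0.91, with 46 of 48 lower in E0del/+. Within batch 2 it was 0.90, with 45 of 48 higher, between mice that also differed in Xist and the Y-linked genes. Without WT SkM replicate 1 the median was 0.87 and 10 members had an unadjusted p under 0.05, against 11.8% of all genes, and without WT SkM replicate 2 it was -0.35 with 9, against 2.15%. Without E0del/+ SkM replicate 3, 16 of 47 members were positive, with a median of -0.17, of -0.09 for the fibrillar matrix and -0.17 for the basement membrane, and only Thbs4 had an unadjusted p under 0.05, against 2.23%. Without E0del/+ SkM replicate 1 the median was 0.31, and 5 of 47 members (Ogn, Fn1, Col22a1, Thbs2 and Loxl1) had an unadjusted p under 0.05, against 0.492% of all genes. The test of whether the genotype difference differed between tissues passed 0 of 49 members, against 0% of 14327 genes by edgeR, and 0 members had an unadjusted p under 0.05, against 1.66% of all genes. DESeq2 passed 0 genes, with 2 members at an unadjusted p under 0.05 (Fn1 and Thbs2), against 1.77% of all genes. The median over members was 0.19, with 39 of 49 positive, against 0.02 over all genes. The largest estimate was Fn1 at 1.68 (SE 0.78, edgeR adjusted p = 1.00). By group, the median was 0.32 for the fibrillar matrix, 0.09 for the basement membrane, 0.44 for remodelling and -0.92 for tendon, with all 5 tendon estimates negative. The 10 fast fibre markers (median 3.71) and the 5 slow fibre genes (median 0.90) were all positive in this test. Positive estimates were also found for 6 of 7 adipocyte markers (median 3.66) and 1 of 5 Schwann cell markers (median -0.89). The part of these markers in the member values was not tested. Without WT replicate 1 the tendon median was -0.15, with 3 of 5 negative, and that of all members 0.75. Without WT replicate 2 the median of all members was 0.01, with 25 of 49 positive, and without E0del/+ replicate 3 it was -0.03, with 24 of 49 positive and Thbs4 alone at an unadjusted p under 0.05, against 2.16% of all genes. Without WT replicate 1, 155 genes passed, 0 of them members, and 6 members (Fn1, Postn, Thbs1, Thbs2, Lox and Pdgfra) had an unadjusted p under 0.05, against 10.3% of all genes. Leaving out E0del/+ replicate 1 also gave 6 (Col1a2, Col14a1, Ogn, Fn1, Fbn1 and Thbs2), against 1.19%, and leaving out WT replicate 2 gave Thbs1 alone, against 1.09%. With 2 mice against 3, differences within the spread between mice were not detectable.

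**Figure D5:**
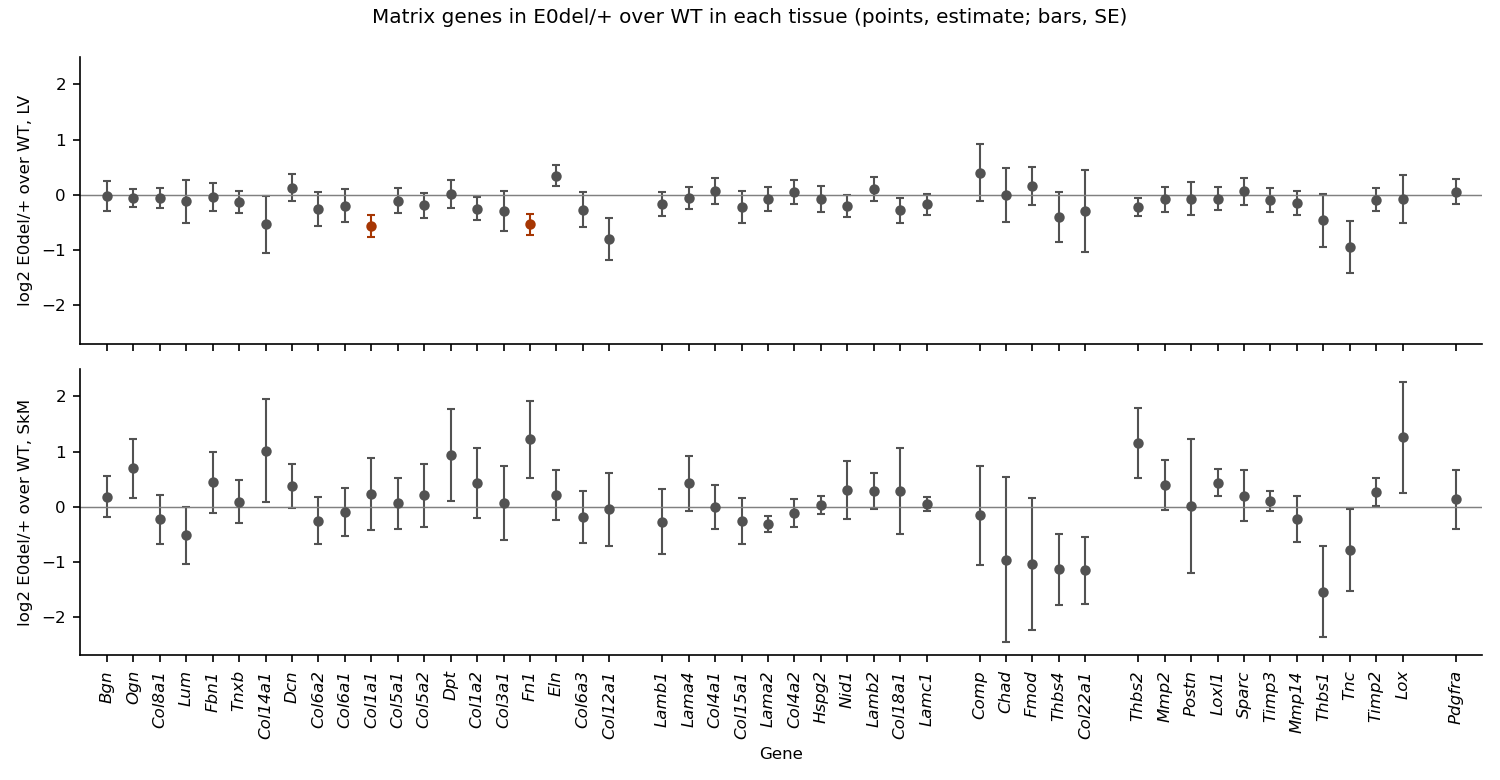
Log2 fold change of E0del/+ over WT (vertical axis) for 48 members (horizontal axis, by group) in LV (upper panel) and SkM (lower panel), with points for the estimate and bars for the SE. Coloured points have an unadjusted p under 0.05, which in LV are Col1a1 and Fn1 and in SkM none.

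Other matrix genes were counted in the same comparison of LV with SkM, in which 32.1% of all genes were higher in LV and 30% higher in SkM. Over 6 further lists of matrix genes, 100 of 117 were tested, of which 69 were higher in LV, 13 were higher in SkM and 18 were not called, with a median of 1.31. Of 18 further collagens tested, 8 were higher in LV and 4 in SkM. Col4a5, a collagen IV chain, had a log2 fold change of 4.07 (SE 0.18, edgeR adjusted p = 4.75e-06), and Col7a1, the anchoring fibril collagen, -4.44 (SE 0.44, edgeR adjusted p = 9.21e-05). Of 18 genes for collagen processing 15 were higher in LV and 1 in SkM, among which Crtap, part of a complex that hydroxylates collagen prolines, had a log2 fold change of 2.37. For other basement membrane genes 13 of 15 were higher in LV and 2 were not called. Of 16 proteases and inhibitors 11 were higher in LV and 1 in SkM, and of 18 matricellular and elastic genes 14 were higher in LV and 2 in SkM. Fbln1, a fibulin of elastic fibres and basement membranes, had a log2 fold change of 4.87 and Aebp1, a collagen-binding protein, of -3.24. Among TGF-beta and latency genes 8 were higher in LV and 5 in SkM of 15, with log2 fold changes of 2.69 for Ltbp4 and -2.80 for Smad3. Of 8 further tendon genes 4 were higher in LV and 2 in SkM (median 1.2). All 7 cartilage and bone genes were too low to be tested between the tissues, and of 5 Schwann cell markers 2 were higher in SkM and 3 were not called. Of 5 slow fibre genes 2 were higher in LV and 3 in SkM, and Myh2 was higher in SkM.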

How the data were processed

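Left ventricle and skeletal muscle of 2 WT and 3 E0del/+ mice were measured by bulk RNA-Seq, 1 library per tissue and mouse. The authors deposited raw counts per gene with exon lengths, and RPKM, which equals counts per length and per total count to a relative deviation of 2.66e-14 and was used only as a check. The submitters' processing notes name STAR, DESeq2 and mm10, without version or role, and the strand use of the counting is not stated. Of the members 15 overlap exons of genes on the other strand in GENCODE. Total counts were 11010021 to 17484873 per library, and intervals cover counting error only.

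Genes were filtered with filterByExpr and scaled with TMM in edgeR 4.0.16 (R 4.3.3, limma 3.58.1). LV and SkM were compared with the mouse as a block, E0del/+ and WT within each tissue, and their interaction over 10 libraries, with edgeR's quasi-likelihood F test, and p-values were adjusted over all genes (Benjamini-Hochberg, threshold 0.05). SE is the absolute log2 fold change divided by the square root of F. Tables and figures used Python 3.11.15, pandas 2.3.3, numpy 2.4.6, scipy 1.17.1 and matplotlib 3.10.9. Correlations of deviations from group means across genes (genes are not independent replicates) were 0.03 and -0.14 between WT and E0del/+ of a batch in LV, 0.43 and 0.28 in SkM, and -0.10 to 0.13 between the tissues of a mouse.

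Members and lists were chosen with earlier results of these data known. Values in every library are given for the members with the largest tissue difference past the threshold in each group (up to 4 per direction), the most abundant per kb, the 3 with the widest range in each tissue, those with an unadjusted p under 0.05 or among the 3 largest genotype differences per tissue, and Pdgfra. Others are named after their values were seen. Lists of other matrix genes and of cell type markers were counted with their medians and not tested as sets. Alternatives were scaling in edgeR by DESeq2's size factors or by total counts, DESeq2 1.42.0 with its Wald test, no filter, at least 10 counts in every library, no mouse block or the batch number as a block, each library or mouse left out, and the E0del/+ mice only. The last, and leaving libraries out of the spread and the group sums, were chosen after seeing the data. The fits were also run on simulated data, from which no result is given here.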

Additional observations from a re-analysis of the deposited data

Results flagged for a closer look

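In 66 series of 5 libraries, each a named member or a group sum in a tissue, 3 were past Dixon's limit on the gap between an end library and its nearest neighbour over the whole range. By chance about 1 in 20 such series would. Tnmd was at 0.0769 CPM, a single count, in WT LV replicate 2 and at 0 in the other LVs. This lies under the 3 counts that a count of 0 allows (0.156 to 0.220 CPM in those LVs), and so shows no difference. Tnc was at 3.36 CPM in WT SkM replicate 1, with the nearest other SkM library at 1.30. Thbs1 was at 29.8 CPM in WT SkM replicate 1, with the nearest at 6.23. No cause was tested.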

How the results depend on the processing

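Of the 40 members called between the tissues, each checked in 12 settings, calls were kept in 450 of 480 combinations, and no called member changed direction. Losses fell on Col1a2, Col3a1, Col14a1, Col6a3, Dpt, Col18a1, Comp and Mmp14, while Comp, Col22a1 and Postn could not be tested with at least 10 counts in every library, and 7 calls were gained in members not called before. Members higher in LV numbered 33 to 40 across the other settings, with 33 without the mouse block (median 1.38) and 30 in the E0del/+ mice only, chosen after seeing the data. With total counts, 7881 genes were higher in LV and 1590 in SkM, and the member median was 2.12; at least 10 counts in every library left 1 member higher in SkM. Total counts also moved the median ratio of highest to lowest library to 1.89 in LV and 3.56 in SkM, and the mean log2 ratio of the group sums to 2.22 (all members), 2.49 (basement membrane), -1.11 (tendon) and 1.5 (remodelling), the fibrillar sum being 2.30. Leaving out single libraries, chosen after seeing the data, gave spread ratios of 1.48 to 1.65 in LV and 2.30 to 3.13 in SkM. In the LV genotype comparison, 12 genes passed by DESeq2 and 5 with the batch number as a replicate block, and leaving out single libraries gave 0 to 578, with member medians of -0.26 to 0.13. In SkM, 1 gene passed with the batch block (member median -0.01), and leaving out single libraries gave medians of -0.35 to 0.87. For the interaction, leaving out single mice gave 0 to 155 genes and medians of -0.0298 to 0.75. Where an arm was left with a single library, it was assumed to vary like the others. The cause of these shifts was not tested. Tnmd and Timp1 had too few counts at this depth to be tested between the tissues.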

Other observations

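Several members lie next to each other in the genome. Col4a1 and Col4a2 start from opposite strands on chromosome 8, and their RefSeq starts overlap by 22 bases. Col3a1 and Col5a2 lie 24.6 kb apart on chromosome 1, Dcn and Lum 47.3 kb apart on chromosome 10, and Col6a2 and Col6a1 85.4 kb apart on chromosome 10. In each pair both genes were higher in LV, with log2 fold changes of 2.32 and 2.18 for the collagen IV pair, 1.10 and 1.31 for Col3a1 and Col5a2, 1.69 and 2.24 for Dcn and Lum, and 1.66 and 1.61 for Col6a2 and Col6a1. The pairs were chosen for their position, without a test.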
